A study of Mus musculus with 8 samples.

Results

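The genes of the cytosolic ribosome were followed in whole mouse kidneys at embryonic day 14.5. Members were taken by name, as genes whose symbol is Rpl or Rps followed by a number, together with Rplp0, Rplp1, Rplp2 and Rpsa, without genes named as pseudogenes and without the Rps6k kinases. The array carried 86 such genes with 148 probes, out of 22911 named genes, and 83 of them were among the 16013 genes tested. Of these 83 genes, 50 encode proteins of the large subunit and 33 proteins of the small subunit. The annotation calls 85 of the 86 genes protein-coding and calls Rps4l a transcribed pseudogene. The 3 genes left untested were the paralogs Rpl10l and Rpl3l, whose probes were above background in 0 channels of either genotype, and Rpl39l, whose probe was above background in 2 of 8 channels with mutant RNA and in 0 of 8 with wild-type RNA. The chosen probe of each of the 83 tested members was above background in all 8 channels of both genotypes. The only probe of Rpl37 was dim all the same. Its mean log2 intensity was 8.33 in mutant and 8.24 in wild-type RNAs, against 17.32 and 17.29 for Rps27. Rpl37 was kept in the counts below.

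The mutant kidneys were conditional Mdm4 knockouts in which Cre is made from a Hoxb7 transgene, and the kidneys they were set against were wild type. The Hoxb7 promoter works in the ureteric bud and in the collecting ducts formed by it, so that Cre is made in only some of the cells of the organ. The labels do not say whether wild-type embryos carried Cre, what the Mdm4 alleles were, or how many embryos gave each RNA. There were 4 mutant and 4 wild-type RNAs, hybridised as 4 pairs on 8 arrays with 2 colours, each pair once in each dye orientation. In the text below a value is a log2 ratio of mutant over wild type unless stated, the 2 arrays of a pair are averaged, and an error is the standard error of limma over n = 4 pairs.

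The cytosolic ribosome is built from ribosomal RNA and about as many proteins as there are members here, in amounts that must match, and growing tissues such as the embryonic kidney spend much of their transcription on it. Messenger RNAs of ribosomal proteins usually begin with a C followed by other pyrimidines, the terminal oligopyrimidine start, through which the mTOR pathway sets their translation. When ribosome assembly fails, free ribosomal proteins such as Rpl5 and Rpl11 bind Mdm2, the ubiquitin ligase that destroys p53, and p53 accumulates. Mdm4 is the partner of Mdm2 and holds p53 inactive, so its loss reaches p53 from the other side of that pathway. Rps27l is a target gene of p53 in human cells, which makes it a member with a known tie to the mutated pathway.

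The starts of a few members are shown because the pyrimidine start is the sequence feature these genes are known for. Each window was read from RefSeq on GRCm38.p6, runs from 10 bases before the annotated start to 20 bases into the transcript, and has the pyrimidine run led by C in capitals where 1 of at least 5 bases began within 5 bases of the start.
Rps24: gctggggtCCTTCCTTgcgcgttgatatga
Rps27: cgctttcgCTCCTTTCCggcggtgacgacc
Rps27l: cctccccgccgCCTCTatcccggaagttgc
Rps6: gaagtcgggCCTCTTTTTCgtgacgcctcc
Rps26: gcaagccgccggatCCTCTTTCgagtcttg
Rpl22l1: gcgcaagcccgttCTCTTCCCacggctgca
Rpl41: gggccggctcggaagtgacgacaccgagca
Rps4x: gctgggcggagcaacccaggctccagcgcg
These windows lie at chr14:24490668-24490697 for Rps24 (plus strand), chr3:90213629-90213658 for Rps27 (minus strand), chr9:66946076-66946105 for Rps27l (plus strand) and chr4:86857348-86857377 for Rps6 (minus strand). Those of Rps26 (chr10:128626487-128626516), Rpl41 (chr10:128549149-128549178) and Rps4x (chrX:102189372-102189401) are on the minus strand, and that of Rpl22l1 (chr3:28805498-28805527) is on the plus strand. The run was 9 bases in Rps27 and 5 in its paralog Rps27l. Rpl41 and Rps4x had no such run in this window. Rps24 and Rps27l each have another annotated start (chr14:24490743-24490772 and chr9:66946403-66946432), and the windows there held no such run.

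Series-wide, each channel had 60.7% to 70.2% of the 62976 spots of its array clearly above background, and saturation was flagged for 0 spots. Mdm4 itself gave -0.03, -0.06, -0.28 and -0.35 in pairs 1 to 4 (mean -0.18 ± 0.07, limma adjusted p = 0.471), and the labels do not say which exons are deleted, so its probes may lie outside them. All 24 markers of the embryonic kidney that were looked up passed the filter on dim probes, as did 11 of 12 markers of red blood cells, 5 of 8 of the adrenal cortex, 6 of 8 of liver and 7 of 8 of neurons. The mean ratio of 4 Y-linked genes was 2.76, 1.31, -1.64 and 2.83 in pairs 1 to 4, so that Y-linked RNA differed between the genotypes within every pair. Of 20 p53 targets, 19 had a mean above 0 (95%, beside 53.9% of all genes), with a median of 0.24. Eda2r (1.15), Gdf15 (1.23) and Ccng1 (1.04) had the smallest p among them (limma adjusted p = 0.114 to 0.121).

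After loess, ribosomal protein mRNA was nearly level between mutant and wild-type kidneys. Loess centres the ratios of spots of similar brightness on each array, so a shift shared by bright genes may be partly removed. The median ratio of the 83 members was 0.02, against 0.01 over all genes tested (0.18 and 0.14 where arrays were centred on their median in place of loess). Every member lay between -0.12 (Rpl41) and 0.23 (Rps4l). The SD over members was 0.065, against 0.152 over all 16013 genes, whose means ran from -1.20 to 2.06. It was 0.069 over the mitochondrial ribosomal protein genes and 0.086 over the biogenesis genes described below, and these spreads were not tested against each other. No comparison was made with genes of equal brightness. By limma 0 of 83 members passed an adjusted p of 0.05, beside a background of 0% of all genes (0 of 16013, smallest adjusted p = 0.0750), and the smallest adjusted p of a member was 0.398. At an unadjusted p under 0.05, 2 members (2.41%) were higher in the mutant, beside 7.01% of all genes, and 0 were lower, beside 3.6%. Median centring gave 18 higher members at that level (21.7%, beside 23.6% of all genes) and 0 lower.

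Signs were also counted over the pairs. A ratio above 0 in every pair was found in 9 members (10.8%, beside 12.1% of all genes), namely Rpl21, Rpl23, Rpl23a, Rpl28, Rpl32, Rps15a, Rps19, Rps4l and Rps4x. Those below 0 in every pair were 5 (6.02%, beside 7.84% of all genes), namely Rpl22, Rpl41, Rpl6, Rps16 and Rps26. A further 18 members were above 0 in 1 pair, 26 in 2 pairs and 25 in 3 pairs. The mean was above 0 for 56 of 83 members (67.5%, beside 53.9% of all genes). Only Rpl23a and Rps4l had 1 sign on all 8 arrays (2.41%, beside 4.65% of all genes). With arrays centred on their median, which shifts all genes upwards, 30 members (36.1%, beside 31% of all genes) were higher and 0 lower in every pair. Without pair 1 the counts were 20 higher (24.1%, beside 23.1% of all genes) and 14 lower (16.9%, beside 14.8%). Without pair 4 they were 19 higher (22.9%, beside 16.7% of all genes) and 13 lower (15.7%, beside 12%). With loess and all 4 pairs the counts of 1 sign lay just below the background in both directions, while the count of means above 0 lay above it.

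**Figure D1:**
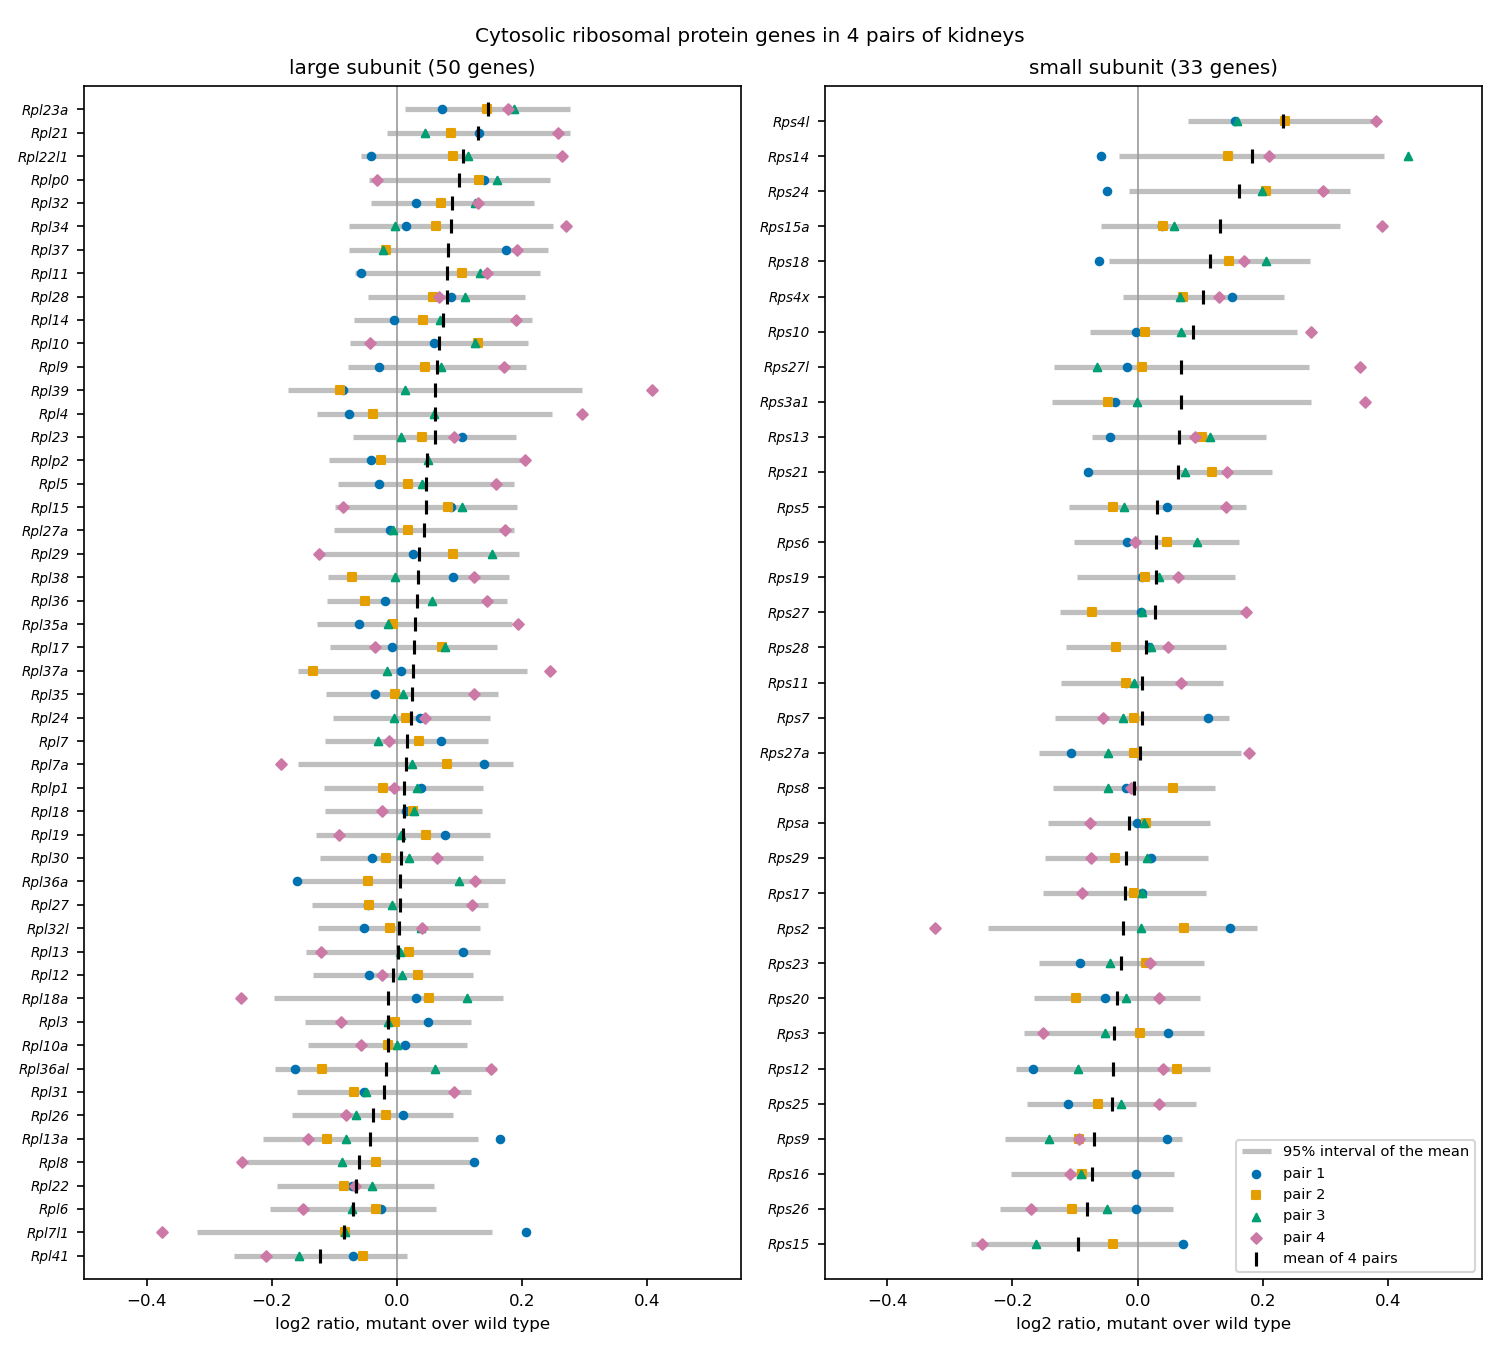
Log2 ratio of mutant over wild type (x axis) for the 50 large-subunit genes (left) and 33 small-subunit genes (right), ordered by mean. Symbols are the 4 pairs, the black tick is their mean and the grey bar its 95% interval, which holds 0 for 81 of 83 genes. The exceptions are Rpl23a and Rps4l, and pair 4 often lies at either end.

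The intervals of the loess fit were narrow against the largest ratios of the p53 targets, but less so against their median of 0.24. The 95% interval of limma lay within 0.5 of 0 on the log2 scale for all 83 members and within 0.25 for 68 of them. Its median half-width was 0.142 and its widest 0.235. The lowest bound was -0.320, for Rpl7l1, and the highest was 0.393, for Rps14. These intervals hold for RNA of whole kidneys and for loess, and with arrays centred on their median the member means ran from 0.04 to 0.40. In such bulk RNA fewer cells of a type and less RNA per cell cannot be told apart, and a difference confined to the cells that make Cre would appear here diluted by the other cells.

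**Figure D2:**
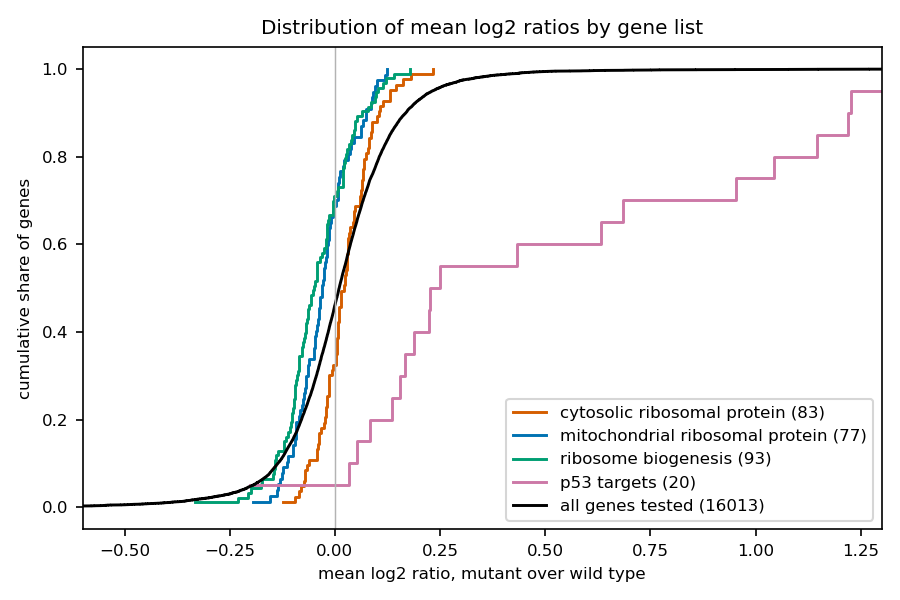
Cumulative share of genes (y axis) by mean log2 ratio of mutant over wild type (x axis, shown from -0.6 to 1.3) for 4 gene lists and all 16013 genes tested. The 83 cytosolic ribosomal protein genes form a steep curve near 0 with a median of 0.02, whereas the 20 p53 targets have a median of 0.24.

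The p53 target among the members was level in 3 pairs and higher in 1. Rps27l encodes a paralog of the small-subunit protein Rps27, and both proteins bind Mdm2. Its normalised log2 intensity was 15.81, 15.88, 15.80 and 16.31 in mutant RNAs of pairs 1 to 4, against 15.83, 15.87, 15.87 and 15.96 in their wild-type partners. Only the mutant RNA of pair 4 stood above the rest, and the groups overlapped. The ratios were -0.02, 0.01, -0.07 and 0.35, with a mean of 0.07 ± 0.08 (95% interval -0.13 to 0.27, limma adjusted p = 0.770). Without pair 4 the mean was -0.02, and with the sex difference of the pairs as a covariate it was -0.00090. A second probe of Rps27l gave 0.06, -0.05, -0.12 and 0.03 (mean -0.02), so that the value of pair 4 was not seen there. The 95% interval ends below the ratios of 1.04 to 1.23 of the p53 targets named above, which had the smallest p. It holds the median of 0.24 of all 20 p53 targets.

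Rps27 itself, the general form of the protein, had 17.28, 17.28, 17.32 and 17.41 in mutant RNAs, against 17.27, 17.35, 17.31 and 17.23 in wild-type RNAs. Its ratios were 0.01, -0.07, 0.01 and 0.17, again with pair 4 at the top (mean 0.03 ± 0.06, limma adjusted p = 0.884). Without pair 4 the mean was -0.02. The second probe of Rps27 stayed within 0.05 of 0 in every pair, from -0.03 to 0.04.

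**Figure D3:**
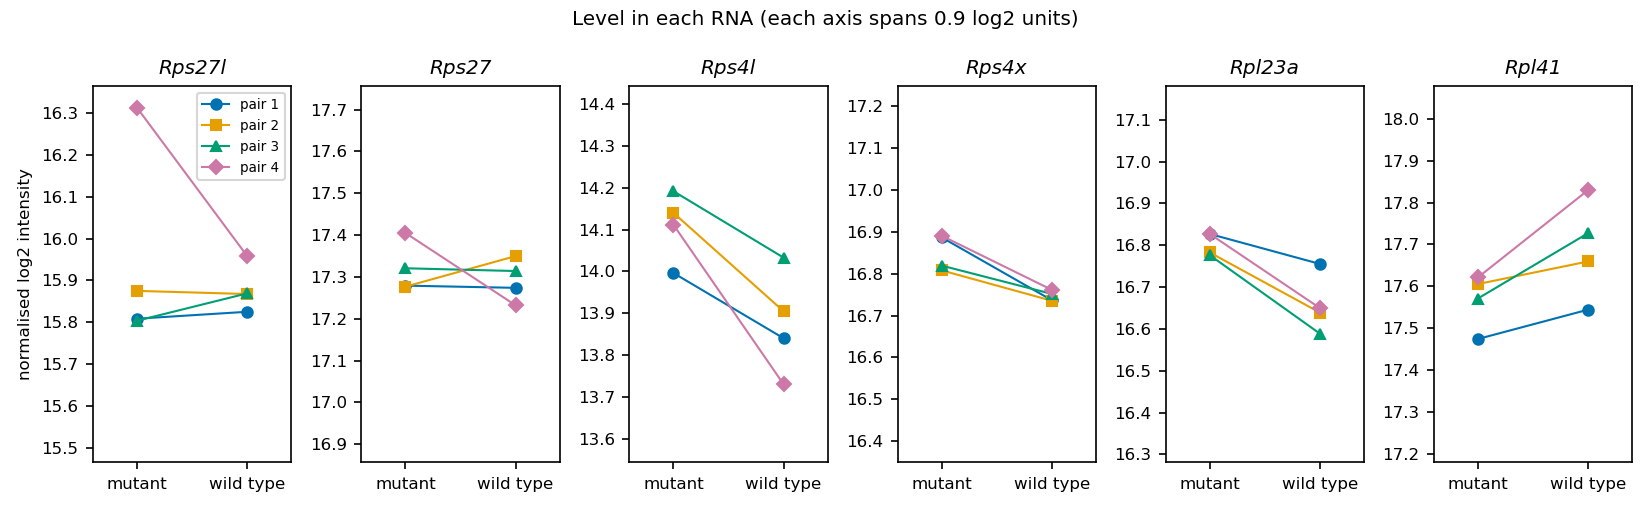
Normalised log2 intensity (y axis, each panel spanning 0.9) of 6 members in mutant (left) and wild-type (right) RNA, with a line for each pair. The mutant end of every line is the higher in Rps4l, Rps4x and Rpl23a and the lower in Rpl41, whereas in Rps27l and Rps27 the lines run in both directions and pair 4 is the steepest.

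The members highest in the mutant by p were Rps4l and Rpl23a. Rps4l is a rodent relative of Rps4x on chromosome 6, and it carries no protein-coding annotation in the table used. Its normalised log2 intensity was 14.00, 14.14, 14.19 and 14.11 in mutant RNAs, against 13.84, 13.90, 14.03 and 13.73 in wild-type RNAs. Each mutant RNA lay above its own partner, although the lowest mutant level was below the highest wild-type level. The ratios of 0.16, 0.24, 0.16 and 0.38 averaged 0.23 ± 0.06 (95% interval 0.08 to 0.39), with an unadjusted p of 0.00948 and a limma adjusted p of 0.398. Rps4x, on the X chromosome, encodes the standard form of the protein and had ratios of 0.15, 0.07, 0.07 and 0.13 (mean 0.10 ± 0.05, limma adjusted p = 0.533). Its levels did not overlap, with 16.89, 16.81, 16.82 and 16.89 in mutant RNAs against 16.74, 16.74, 16.75 and 16.76 in wild-type RNAs. Whether the probes of these 2 relatives detect each other's transcripts was not tested. Without Rps4l, an alternative chosen after seeing the data, the member median was 0.02 over 82 genes.

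Rpl23a, a protein at the exit of the nascent chain from the large subunit, had 16.83, 16.78, 16.78 and 16.83 in mutant RNAs, against 16.76, 16.64, 16.59 and 16.65 in wild-type RNAs. The groups did not overlap. The ratios of 0.07, 0.14, 0.19 and 0.18 gave a mean of 0.15 ± 0.05 (limma adjusted p = 0.451), and a second probe gave 0.06, 0.11, 0.16 and 0.04. The remaining member with mutant levels above all wild-type levels was Rpl28, a large-subunit protein, with 17.21, 17.21, 17.21 and 17.23 in mutant RNAs against 17.12, 17.15, 17.10 and 17.16 in wild-type RNAs. This pattern of no overlap held for 3 of 83 members (3.61%), beside 3.3% of all genes.

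The next members by p on the higher side were Rps24, Rpl21 and Rps14. Rps24, a small-subunit protein mutated in some patients with Diamond-Blackfan anaemia, had ratios of -0.05, 0.20, 0.20 and 0.30 (mean 0.16 ± 0.07, limma adjusted p = 0.496). Rpl21, of the large subunit, had 0.13, 0.09, 0.05 and 0.26 (mean 0.13 ± 0.06, limma adjusted p = 0.506). Rps14, whose loss from a human chromosome arm causes an anaemia, had -0.06, 0.14, 0.43 and 0.21 (mean 0.18 ± 0.09, limma adjusted p = 0.516). Pair 1 lay below 0 for Rps24 and Rps14, and all 4 pairs lay above 0 for Rpl21.

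On the lower side the means were closer to 0 and no member reached an unadjusted p of 0.05. With arrays centred on their median all members, Rpl41 included, were above 0. Rpl41, a very short basic protein of the large subunit, had 17.47, 17.61, 17.57 and 17.62 in mutant RNAs, against 17.54, 17.66, 17.73 and 17.83 in wild-type RNAs. Each mutant RNA lay below its partner, but the groups overlapped. Its ratios were -0.07, -0.05, -0.16 and -0.21 (mean -0.12 ± 0.06, limma adjusted p = 0.508). Its second probe gave -0.09, 0.03, -0.07 and -0.27.

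Rps26, which lines the channel where mRNA leaves the small subunit, had ratios of -0.00, -0.10, -0.05 and -0.17 (mean -0.08 ± 0.06). Rps16, of the head of the small subunit, had -0.00, -0.09, -0.09 and -0.11 (mean -0.07 ± 0.05). Rpl22, whose loss in mice blocks one T-cell lineage through p53, had -0.07, -0.08, -0.04 and -0.07 (mean -0.07 ± 0.05, limma adjusted p = 0.654). In these 3 genes all mutant levels lay below all wild-type levels, which held for 3.61% of members beside 1.52% of all genes. The highest mutant and lowest wild-type levels nearly met. They were 17.4423 and 17.4447 for Rps26, 17.6104 and 17.6131 for Rps16, and 16.5587 and 16.5598 for Rpl22. A second probe of Rps16 gave ratios of -0.012, -0.060, 0.0035 and -0.065. Rpl6, of the large subunit, had -0.03, -0.03, -0.07 and -0.15 (mean -0.07 ± 0.05). Rps15, near the decoding site, had 0.07, -0.04, -0.16 and -0.25 (mean -0.09 ± 0.07, limma adjusted p = 0.644), with pair 1 on the other side of 0.

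The members that bind Mdm2 had a median of 0.02, as had all members. Of 18 such genes 11 had a mean above 0 (61.1%, beside 67.5% of members and 53.9% of all genes). In every pair 1 was higher and 2 were lower, beside 12.1% and 7.84% of all genes. Rpl11, which with Rpl5 holds Mdm2 in check, had ratios of -0.06, 0.10, 0.13 and 0.14 (mean 0.08 ± 0.06, limma adjusted p = 0.646). Rpl5 had -0.03, 0.02, 0.04 and 0.16 (mean 0.05 ± 0.06, limma adjusted p = 0.781). Both had pair 1 just below 0 and the other pairs above it. A difference between these genes and the other members was not tested. The 4 genes of this list with the smallest p were Rps14, Rps26 and Rps15, described above, and Rplp0, described below.

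Genes mutated in Diamond-Blackfan anaemia, a failure of red cell production in humans, also had a median of 0.02. Of 18 genes 13 had a mean above 0 (72.2%, beside 53.9% of all genes). In every pair 1 gene was higher and 1 lower, beside 12.1% and 7.84% of all genes. Rps19, the gene mutated most often in that disease, had ratios of 0.01, 0.01, 0.03 and 0.06 (mean 0.03 ± 0.05, limma adjusted p = 0.849), and was the gene higher in every pair. Rps10 had -0.00, 0.01, 0.07 and 0.28 (mean 0.09 ± 0.07), whereas its second probe gave 0.09, 0.03, -0.05 and -0.12. Pair 4 was the highest pair for the chosen probe of Rps10 and the lowest for the other.

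Members whose mutation in mice gives p53-dependent or patterning defects had a median of 0.02 and a range of -0.07 to 0.04. Of 9 such genes 6 had a mean above 0 (66.7%, beside 53.9% of all genes). Rpl38, needed for translation of Hox mRNAs in the mouse embryo, had ratios of 0.09, -0.07, -0.00 and 0.12 (mean 0.03 ± 0.06). Rpl27a, mutated in the sooty foot ataxia mouse, had -0.01, 0.02, -0.01 and 0.17 (mean 0.04 ± 0.06). Rps20, mutated in a mouse with dark skin, had -0.05, -0.10, -0.02 and 0.03 (mean -0.03 ± 0.05).

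The proteins of the stalk and of other functional sites gave 5 of 9 means above 0 (55.6%, beside 53.9% of all genes). Their median was 0.01. Rplp0, the base of the stalk that recruits elongation factors, had 0.14, 0.13, 0.16 and -0.03 (mean 0.10 ± 0.06, limma adjusted p = 0.576). Pair 4 was the only pair below 0 for Rplp0. Rplp2, which sits on the stalk, had -0.04, -0.03, 0.05 and 0.21 (mean 0.05 ± 0.06). Rpl10, which joins late to complete the large subunit, had 0.06, 0.13, 0.12 and -0.04 (mean 0.07 ± 0.06). Rps3, at the entry of mRNA, had 0.05, 0.00, -0.05 and -0.15 (mean -0.04 ± 0.06).

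Of 9 paralogs on the list 6 could be tested, with a median of 0.09 and 4 means above 0 (66.7%, beside 53.9% of all genes). Of the 6 tested, 2 were higher in every pair, Rps4l and Rps4x, beside 12.1% of all genes. Rpl22l1, the paralog of Rpl22, had ratios of -0.04, 0.09, 0.11 and 0.26 (mean 0.11 ± 0.07, limma adjusted p = 0.592), opposite in sign to the mean of Rpl22. The difference between Rpl22l1 and Rpl22 was not tested. Rpl7l1, a relative of Rpl7, had the widest spread of the named members, with 0.21, -0.08, -0.08 and -0.38 (mean -0.08 ± 0.10). A few genes outside the naming rule encode ribosomal proteins too. Rack1, a scaffold on the small subunit, had a mean of 0.09 ± 0.08, and Fau, made as a fusion with a ubiquitin-like protein, had 0.04 ± 0.06.

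By subunit, the median was 0.02 over the 50 large-subunit genes, with 37 means above 0 (74%). It was 0.0069 over the 33 small-subunit genes, with 19 means above 0 (57.6%), beside 53.9% of all genes. The X-linked members Rpl10, Rpl36a, Rpl39 and Rps4x had means of 0.07, 0.0050, 0.06 and 0.10. Their signs by pair did not follow the Y-linked genes, which were below 0 in pair 3 alone.

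The members differed more between dye orientations than between genotypes. The member median was 0.100, 0.098, 0.12 and 0.15 on the Cy5-labelled mutant RNAs of pairs 1 to 4, against -0.078, -0.10, -0.10 and -0.087 where the dyes were exchanged. The 2 orientations therefore gave opposite signs in every pair. Averaged over the pairs, the median was 0.12 for mutant RNA in Cy5 and -0.076 for mutant RNA in Cy3, while over all genes it was 0.0054 and 0.025. The median difference between orientations was 0.17 for members, positive in 71 of 83, and -0.021 for all genes, positive in 7371 of 16013. For 73 members (88%, beside 70.1% of all genes) this difference was larger than the mean ratio itself. Rps24 gave 0.63 with mutant RNA in Cy5 and -0.31 in Cy3, Rpl14 gave 0.51 and -0.36, and Rpl32 gave 0.47 and -0.30. Averaging the 2 arrays of a pair cancels an effect of this kind where it is equal on both. Orientation went with the row of the slide, so the dye and the row cannot be told apart.

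**Figure D4:**
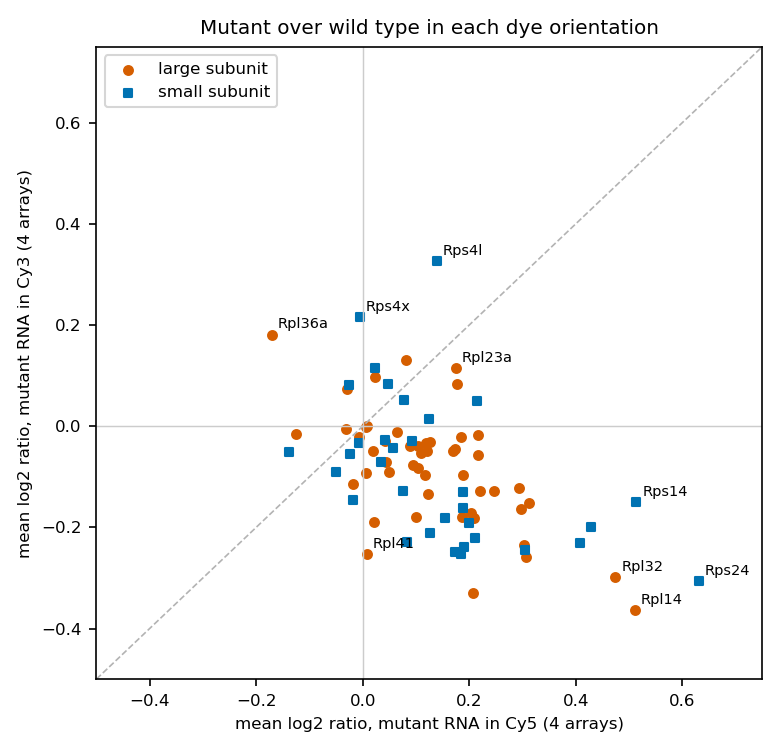
Mean log2 ratio of mutant over wild type for mutant RNA labelled with Cy5 (x axis, 4 arrays) and with Cy3 (y axis, 4 arrays), a point for each of the 83 members. Most points lie below the dashed line of equal values, to the lower right, whereas Rps4l and Rpl23a are above 0 in both orientations.

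The same could be read from how arrays resembled each other. Across the 83 members, which are not independent replicates, array ratios turned to mutant over wild type correlated with a median r of 0.60 between arrays of 1 dye orientation (12 array pairs, 0.09 to 0.84). Between the 2 arrays of the same RNAs with dyes exchanged the median r was -0.34 (4 array pairs, -0.51 to 0.07). Between different RNAs with dyes exchanged it was -0.48 (12 array pairs, -0.65 to -0.16). Each array's members thus followed its dye orientation more closely than the RNAs on it.

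After the dyes were averaged, the pairs had no common order of members. Over the 83 members the r between pairs was 0.68 for pairs 2 and 3, 0.39 for pairs 3 and 4, 0.20 for pairs 2 and 4 and 0.17 for pairs 1 and 2. It was -0.06 for pairs 1 and 3 and -0.34 for pairs 1 and 4. Over all 16013 genes pairs 2 and 3 gave -0.03 and pairs 1 and 4 gave 0.20, so the members did not repeat the order of resemblance seen there. Pair 4 had the widest spread of members, with an SD of 0.170, against 0.079, 0.075 and 0.089 in pairs 1 to 3. All genes were also most spread in pair 4, with an SD of 0.367, against 0.223, 0.184 and 0.226. The member median by pair was -0.00064, 0.0075, 0.0083 and 0.064, and without pair 4 the median of the member means was 0.0045.

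Probes of 1 gene give a further reading of the error. The chosen probe of 36 members was printed in 10 spots per array, and the SD between spots of a probe had a median of 0.024. The median standard error that limma gave for all 83 members was 0.059. That is the error of a mean over 4 pairs, whereas the SD is of single spots on 1 array, so the 2 are unlike measures. Of 46 members with more than 1 usable probe, 28 had every probe on the same side of 0, and the median range between the probes of a member was 0.059. The same count and range were not taken over all genes, so whether they are particular to the members is not known. Among members the widest ranges were in Rpl3 (-0.18 to 0.05), Rps18 (-0.10 to 0.11) and Rpl9 (-0.12 to 0.06). Rpl3 lies beside the catalytic centre of the large subunit, and one of its other probes gave 0.35, -0.12, -0.26 and -0.69, whereas its chosen probe gave 0.05, -0.00, -0.01 and -0.09. Rps18, of the small-subunit head, gave -0.06, 0.15, 0.21 and 0.17 with its chosen probe and 0.07, -0.07, -0.11 and -0.28 with another. Rpl9, of the large subunit, gave -0.03, 0.05, 0.07 and 0.17 with its chosen probe and 0.09, -0.03, -0.09 and -0.45 with the other. In each of these 3 genes 1 probe was highest in pair 1 and lowest in pair 4 while another was highest in pair 3 or pair 4. Ribosomal protein genes have many processed pseudogenes of near-identical sequence, and whether probes also detect their transcripts was not tested.

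**Figure D5:**
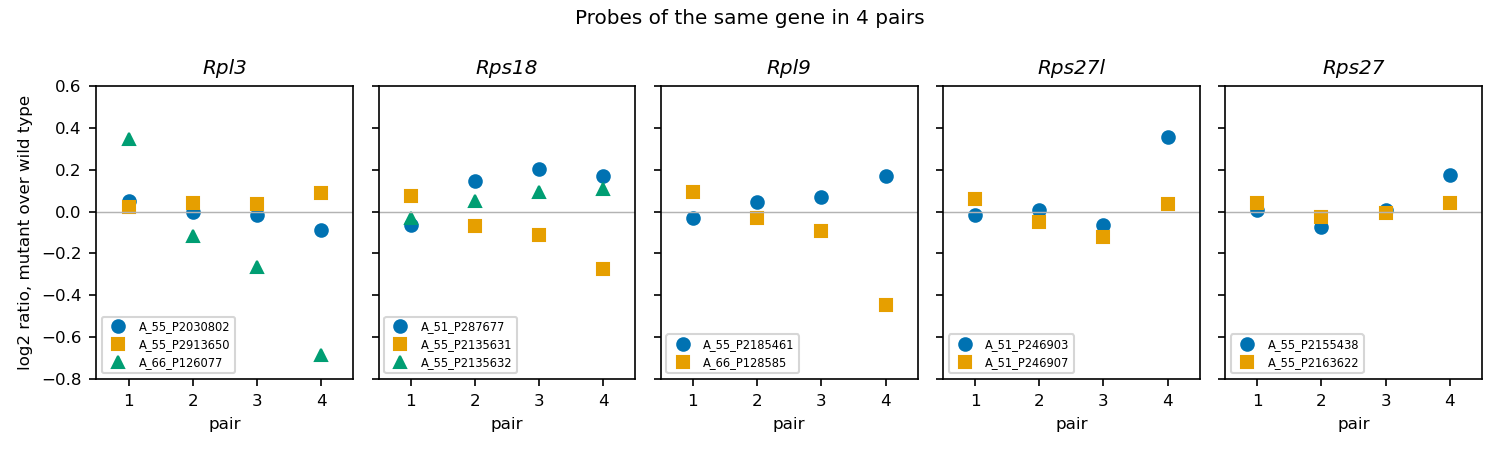
Log2 ratio of mutant over wild type (y axis) in pairs 1 to 4 (x axis) for each probe of Rpl3, Rps18, Rpl9, Rps27l and Rps27, a symbol for each probe. Probes of Rpl3, Rps18 and Rpl9 part most in pair 4, while both Rps27 probes stay near 0 in all pairs but for 1 probe in pair 4.

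Other genes of ribosome production were set beside the members. Of 93 tested genes of ribosome biogenesis and RNA polymerase I, 27 had a mean above 0 (29%, beside 53.9% of all genes). Their median was -0.05, against 0.02 for the ribosomal proteins (0.11 and 0.18 with arrays centred on their median, where all genes had 0.14). By limma 0 of these 93 passed the adjusted threshold (smallest adjusted p = 0.406). At an unadjusted p under 0.05, 1 was higher and 4 were lower, beside 7.01% and 3.6% of all genes. In every pair 4 were higher and 16 lower, beside 12.1% and 7.84% of all genes. Fbl, the rRNA methyltransferase of the nucleolus, had ratios of -0.10, -0.20, -0.32 and -0.21 (mean -0.21 ± 0.06). Rrp9, a protein of the particle that guides early rRNA cleavage, had -0.09, -0.15, -0.15 and -0.53 (mean -0.23 ± 0.09). Myc, a transcription factor that drives ribosome genes, had 0.12, 0.24, 0.27 and 0.09 (mean 0.18 ± 0.06). Fbl and Rrp9 were below 0 and Myc was above 0 in every pair.

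Translation factors whose mRNAs share the pyrimidine start had a median of 0.02 over 29 genes. Of these 18 had a mean above 0 (62.1%, beside 53.9% of all genes), and 0 passed the adjusted threshold or an unadjusted p of 0.05. Tpt1, a growth-related protein under translational control, had 0.03, 0.05, 0.09 and 0.44 (mean 0.15 ± 0.08). Eef1d, a subunit of the exchange factor for elongation, had -0.15, 0.02, -0.03 and -0.21 (mean -0.09 ± 0.06). Eif2s3x, an initiation factor with a close relative on the Y chromosome, had 0.64, 0.32, -0.33 and 1.12, the same signs as the Y-linked genes in every pair.

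The 77 mitochondrial ribosomal protein genes had a median of -0.03 (0.14 with arrays centred on their median). Of these genes 24 had a mean above 0 (31.2%, beside 53.9% of all genes). In every pair 6 were higher and 12 lower, beside 12.1% and 7.84% of all genes. By limma 0 passed the adjusted threshold (smallest adjusted p = 0.462). At an unadjusted p under 0.05, 0 were higher and 1 was lower, Mrps10 (mean -0.15 ± 0.06), beside 7.01% and 3.6% of all genes. Mrpl43 had 0.12 ± 0.05 and Mrpl22 -0.12 ± 0.06. The medians of these lists differed from that of the cytosolic members by less than 0.1, and no test of the difference between lists was made.

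The sequence features of the members' starts were counted in 73 windows of 300 bases that RefSeq gives for 62 of the members, and in 32851 such windows in all. A pyrimidine run of at least 5 bases led by C and beginning at the annotated start itself stood in 19.2% of member windows, against 2.5% of all windows. Beginning within 5 bases of the start, it stood in 43.8%, against 18.3%. Of motifs on either strand within the whole window, CCGGAAGT, the ETS and GABP site, was in 16.4% against 3.9%. AAGATGGCG, the core of the YY1 site, was in 8.2% against 1.4%. The E-box CACGTG was in 11% against 7.2%, and TATAAA in 11% against 13.6%. The member windows thus held the pyrimidine run, CCGGAAGT and AAGATGGCG more often than windows at large. Between mutant and wild type, the median ratio was 0.05 for the 14 members with a run beginning at the start and 0.0079 for the 48 without one. These medians are less than 0.05 apart and were not tested. For a run beginning within 5 bases of the start, the medians were 0.032 for the 30 members with it and 0.0059 for the 32 without it, also not tested. As printed above, Rps24 and Rps26 both hold a run of 8 bases that begins near the start but not at it. The run of Rps24 begins before the annotated start and covers it, and that of Rps26 begins after it. The means of Rps24 and Rps26 were 0.16 and -0.08.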

How the data were processed

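Spot and local background intensities were deposited as the scanner software wrote them, with Agilent's processed signals, flags and log10 ratios of Cy5 over Cy3 (Agilent Feature Extraction 8.5.1.1 per the submitters' processing notes, 10.7.3.1 per the file headers). The deposited series table holds the same log10 ratios, rounded and not turned for the dye swap, with a median of 0 in each column, by comparison with the scanner files. From the median signals, limma 3.58.1 under R 4.3.3 was used: normexp with an offset of 50, loess within arrays, control and outlier spots left out, ratios set as mutant over wild type, and averages taken first over the spots of a probe, then over the 2 arrays of a pair. Probes well above background in at least 6 of 8 channels of either genotype were kept, which left 34594 of 56605. They were named through RefSeq accessions, and the brightest represents its gene. Levels per RNA are log2 intensities after Aquantile scaling between arrays. The mean ratio of each of the 16013 genes was tested for a difference from 0 (lmFit and eBayes, two-sided), and p-values were adjusted by Benjamini-Hochberg over all of them. The number of arrays limits the precision.

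The pair number marks 2 RNAs on shared arrays, so the ratio within a pair is already paired. The p-values rest on how far these 4 pairs differ, part of which may be technical, and on a variance that limma draws from all genes tested. For members with little spread between pairs the second part weighs most. Rpl22 had an SD between pairs of 0.019 and a limma standard error of 0.052. All arrays lay on 1 slide, so no slide effect could be tested. Members and lists were chosen with earlier results of these data known. The naming rule took Rps27l and Rps27, up to 4 members of each list by p, the 6 members with the smallest p per direction, up to 3 with the widest probe range, and up to 3 genes of each other list. Members named beyond it, such as those of sign counts and the largest dye differences, were chosen after their values were seen. A gene that the rule named is not reported here. Alternatives covered background, offset, normalization, filter, probe choice, dye orientation, a replicate block, the deposited table, centring, sex and each pair left out.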

Additional observations from a re-analysis of the deposited data

Results flagged for a closer look

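In 5 of 46 values tested, all in pair 4, a pair stood apart from the other 3 by more than Dixon's limit. Chance exceeds this limit in about 1 in 20 groups of 4 values with equal spread. Over all genes pair 4 was the most spread, with an SD of 0.367, against 0.223, 0.184 and 0.226 in pairs 1 to 3. How often all genes exceed this limit was not counted. Rplp0 was -0.032 in pair 4, while the other pairs gave 0.13 to 0.16. Rpl27a was 0.17 there, against -0.01 to 0.02 in the other pairs. The median of the ribosomal protein genes was 0.064 in pair 4, against -0.00064 to 0.0083 in the others. Among the genes set beside the members, Tpt1 was 0.44 (others 0.03 to 0.09) and Rrp9 was -0.53 (others -0.15 to -0.09). These values lie on both sides of 0.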

How the results depend on the processing

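The number of members past limma's adjusted threshold was 0 under every alternative run, and their smallest adjusted p was 0.0821, with mutant RNA in Cy3 alone. In the fit of all 8 arrays with a dye coefficient and the replicate block, 45 of 15997 genes passed and 0 members did (smallest adjusted p = 0.138), and the member median stayed at 0.02. With arrays centred on their median, 42 genes and 0 members passed. That centring gave medians of 0.179 for cytosolic ribosomal protein genes, 0.138 for mitochondrial ones, 0.111 for biogenesis genes, 0.181 for translation factors and 0.135 for all genes, with 30 members higher and 0 lower in every pair. At an unadjusted p under 0.05, it gave 18 members higher, beside 23.6% of all genes. Mutant RNA in Cy5 alone gave 24 higher (28.9%, beside 10.5% of all genes), and mutant RNA in Cy3 alone gave 2 higher and 27 lower (32.5%, beside 8.56%); the 2 orientations thus moved opposite ways, and every other alternative gave 1 to 5 members. Mutant RNA in Cy5 alone gave a member median of 0.118 and Rps27 at -0.025. It gave 38 members higher and 2 lower in every pair (45.8% and 2.41%, beside 15.8% and 15.2% of all genes). Mutant RNA in Cy3 alone gave medians of -0.0765 for members, 0.0058 for mitochondrial and -0.0057 for biogenesis genes. It gave 4 members higher and 37 lower in every pair (4.82% and 44.6%, beside 19.8% and 12% of all genes). The median of the kept probes gave 8 members lower in every pair (9.64%, beside 8.37% of all genes), and pairs centred on all genes gave 3 (3.61%, beside 9.63%). The sex covariate put Rps27l at -0.00090. Leaving out each pair moved Rps27l between -0.025 (without pair 4) and 0.115, Rps27 between -0.020 (without pair 4) and 0.062, the members higher in every remaining pair between 11 and 20, and those lower between 5 and 14; agreement of 3 pairs is easier to reach than of 4. Causes were not tested except where the construction shows them. Signs by pair have no value in the block and sex fits. Of 415 alternative values of 26 named members, 33 changed sign and 55 moved by more than the SD between pairs.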

Other observations

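Pairs 1 and 4 often lay on opposite sides of 0 for probes of the members. Of 145 usable member probes, 45 were above 0 in pair 1 and below 0 in pair 4, 48 were the reverse, 30 were above 0 in both and 22 below 0 in both. Of the 46 members with more than 1 usable probe, 24 had probes on both sides of 0 for the difference of pair 4 minus pair 1. The widest of these were Rps3a1, whose probes ran from -1.02 to 0.40 for that difference, and Rpl3, from -1.03 to 0.07. A difference of more than 0.25 in size was found in 25.5% of member probes, against 40.3% of the 23505 named probes kept. Signs in pairs 1 and 4 were not counted over all probes, nor over all genes with more than 1 usable probe. Whether this pattern is particular to the members is thus not known. It was noticed in these data, and its cause was not tested.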
